A study of Mus musculus with 9 samples.

Results

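The collagen gene family was compared between mouse liver tumours and normal mouse liver. Its members were all genes whose symbol in the array's annotation has the form Col, a number, the letter a and a number, and each was read from the brightest probe set that named that gene alone. This gave 42 collagen genes among 18193 genes on the array, of which 11 encode fibrillar collagens, 6 encode the type IV collagens of basement membranes and 25 encode other types. The RefSeq table of the mouse genome lists 44 symbols of this form, and the other two, Col28a1 and Col6a6, were not analysed here.

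The study profiled 5 hepatocellular carcinomas and 4 normal livers, each on 1 Affymetrix array of the type Mouse Genome 430 2.0. The tumours carried the genotype RbΔ/Δ; p130Δ/Δ; p107+/- and are titled triple knockout (TKO). Those mice had been given Ad-Cre, an adenovirus that carries Cre recombinase, by injection into the spleen, and the tumours were dissected 4 months later. The control livers came from adult wild-type mice and were free of tumours, so that genotype, virus and tumour state differed together and cannot be told apart. Neither sex nor the number of animals behind each group is in the labels, so a p-value here reflects sample-to-sample spread, which may be partly technical. In whole tissue, fewer cells of a type and less RNA per cell cannot be told apart.

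Values are log2 expression, on which a difference of 1 is a doubling, and differences are tumours minus livers. The array medians lay between 6.22 and 6.27. Probe sets for the bacterial TrpnX control, which no mouse RNA should bind, ranged from 3.69 to 4.36, and 3 collagen genes had both group means below the upper end of that range. Of the targeted genes, the Rbl2 (p130) value fell by 1.99 (SE 0.30, limma adjusted p = 0.00126), the Rbl1 (p107) value differed by -0.18 (adjusted p = 0.619), and the Rb1 value was 1.05 higher in the libraries labelled as Rb-deleted (adjusted p = 0.0018). The sources used here do not place these probe sets relative to the deleted exons, so they do not check the labels. Hepatocyte markers were abundant in both groups. Of 7, 0 were higher (against 16.1% of all genes) and 1 was lower (Cyp2e1, or 14.3%, against 17.4%). The log2 of their summed level, which bright genes dominate, ranged from 17.08 to 17.37 over tumours and from 17.51 to 17.65 over livers. Their mean log2 level was lower in every tumour, at 12.93 to 14.13 against 14.53 to 14.58 in livers.

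Collagens are secreted or membrane-bound matrix proteins in which alpha chains wind into a triple helix. Fibrillar collagens assemble into the tensile fibres that accumulate in scar and in fibrotic liver, and in liver they are made chiefly by activated stellate cells and portal fibroblasts. Type IV collagen forms the sheet-like network of basement membranes beneath vessels and epithelia, whereas the normal liver sinusoid lacks a continuous basement membrane.

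Collagen RNA did not move as a block. Type IV chains Col4a1 and Col4a2 and fibrillar chains Col1a1 and Col3a1 were higher in tumours, by 3.29-fold to 6.72-fold, while 10 members were lower and 28 did not pass the test. With limma and an adjusted p under 0.05, 4 of 42 collagen genes (9.52%) were higher, against 16.1% of all genes, and 10 of 42 (23.8%) were lower, against 17.4% of all genes. In either direction 14 collagen genes (33.3%) passed, against 33.5% of all genes, so the share that passed was near the background. The median difference was -0.07 over the collagen genes and -0.08 over all genes. The groups did not overlap for 12 collagen genes, 5 with every tumour above every liver and 7 below, against 29.8% of all genes. A difference of at least 2-fold that passed the test was seen in 4 higher members, those named above, and 2 lower members, Col13a1 and Col14a1. Of all 18193 genes, 1187 were higher and 796 lower by that measure.

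By collagen type, the members that passed were spread as follows. Of 11 fibrillar collagens, 2 were higher and 2 lower (18.2% each, against 16.1% and 17.4% of all genes), and 7 did not pass. Their median difference was 0.12, and both shares were near the background. Basement membrane collagens had 2 higher (33.3%), 0 lower and 4 not passed of 6 (median 0.42). The other types had 0 higher, 8 lower (32%) and 17 not passed of 25 (median -0.19). These are counts of related genes, and the difference between types was not tested. Scaling moved these values. Centring arrays on their 75th percentile, on housekeeping genes or on spike-in controls moved the median of all genes from -0.08 to -0.26, 0.31 and 0.65, and that of the collagen genes from -0.07 to -0.25, 0.32 and 0.66. Each of these scalings subtracts 1 value per array, so it shifts the difference of every gene by the same amount. That the collagen median moved with the median of all genes was therefore fixed in advance and says nothing about collagen genes. The collagen median changed sign with the last 2 scalings.

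**Figure D1:**
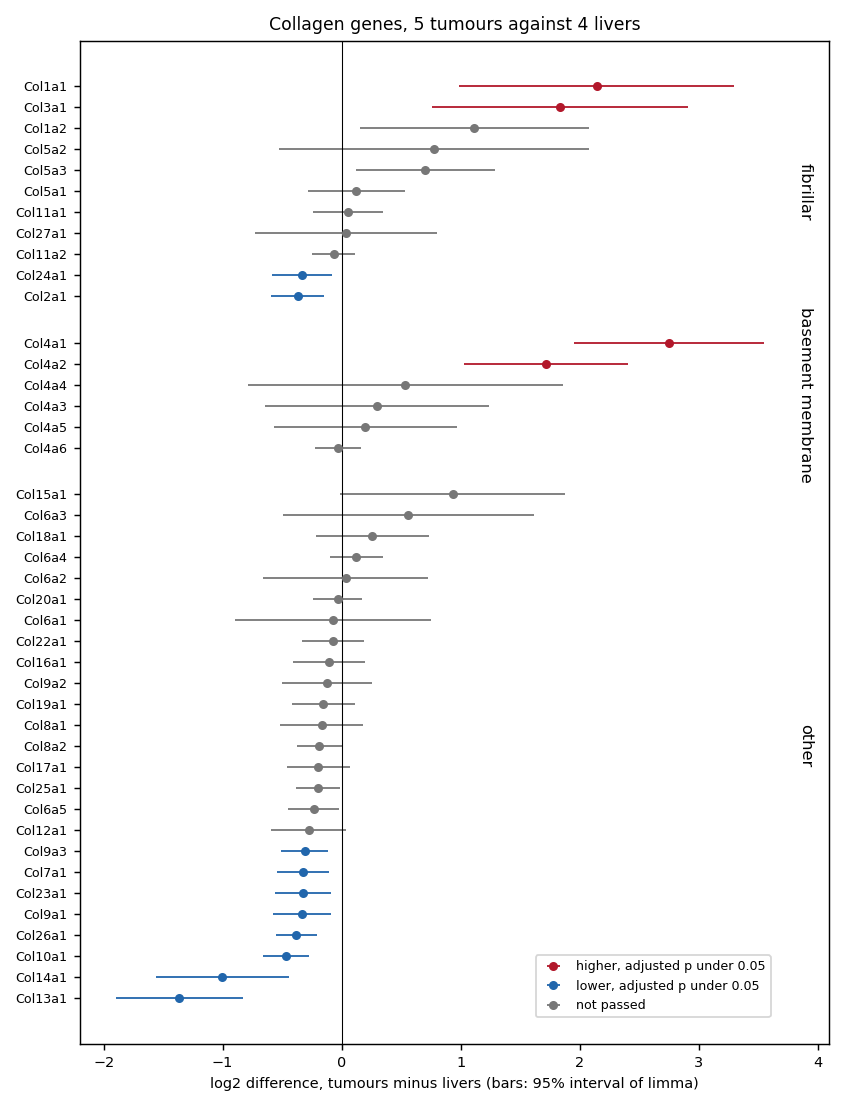
Log2 difference, tumours minus livers, for each of the 42 collagen genes, grouped by type; points are differences and bars the 95% interval of limma over 5 tumours and 4 livers. Red marks the 4 genes that were higher and blue the 10 that were lower with an adjusted p under 0.05; of the blue genes, all but Col13a1 and Col14a1 lie at or above zero when arrays are centred on spike-in controls, and 7 do so with housekeeping genes.

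The type IV chains Col4a1 and Col4a2 lie beside each other on chromosome 8 and are transcribed in opposite directions from facing starts. Their promoter windows are shown because both members rose and share promoter sequence. The windows are 300 bases around each annotated start, from RefSeq on GRCm38.p6, each written 5′ to 3′ on its gene's own strand: chr8:11312777-11313076 on the minus strand for Col4a1 and chr8:11312555-11312854 on the plus strand for Col4a2. Capitals mark the 78 bases, chr8:11312777-11312854, that both windows hold, on opposite strands.
Col4a1: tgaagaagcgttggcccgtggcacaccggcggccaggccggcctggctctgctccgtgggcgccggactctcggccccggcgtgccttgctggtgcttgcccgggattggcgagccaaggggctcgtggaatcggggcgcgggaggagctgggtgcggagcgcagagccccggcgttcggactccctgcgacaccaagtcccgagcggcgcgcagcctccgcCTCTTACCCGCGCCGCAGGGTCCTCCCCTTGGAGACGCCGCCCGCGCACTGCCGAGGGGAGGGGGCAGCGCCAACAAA
Col4a2: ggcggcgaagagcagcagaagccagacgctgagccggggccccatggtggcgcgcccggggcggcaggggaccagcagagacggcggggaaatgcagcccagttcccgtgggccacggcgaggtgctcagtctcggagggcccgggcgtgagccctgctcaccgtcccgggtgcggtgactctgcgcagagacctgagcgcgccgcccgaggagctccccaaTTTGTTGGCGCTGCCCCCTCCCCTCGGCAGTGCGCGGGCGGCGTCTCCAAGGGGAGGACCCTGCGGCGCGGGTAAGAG
Both windows were rich in G and C, at 74% and 73.7%, against a median of 52.7% over 32851 promoter windows. The letters CCAAT, searched on both strands, occurred in each of these windows and in 37.4% of all windows, and the letters GGGCGG occurred in each and in 35.7% of all windows. The Col4a1 window held 1 GGGCGG match, which lies in the 78 shared bases, so both windows count that site. Of the 42 collagen genes, 33 had a window in this table, and 13 of these held CCAAT and 21 held GGGCGG. Counted by window, as the shares of all windows are, 13 of 36 collagen windows held CCAAT and 22 held GGGCGG. A match is a description of the sequence only.

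Col4a1, which encodes the alpha 1 chain of the most widespread type IV collagen, showed the largest difference of the family. Its log2 values were 10.81, 10.88, 12.22, 10.50 and 11.09 in tumours 1 to 5 and 8.48, 8.91, 8.28 and 7.72 in livers 1 to 4. Every tumour lay above every liver, and tumour 3 was highest. The difference was 2.75 (SE 0.35), or 6.72-fold, with an adjusted p of 0.000527 by limma. The other Col4a1 probe set also passed, with a difference of 1.78 (adjusted p = 0.00188 over all 34945 single-gene probe sets, of which 30.6% passed).

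Col4a2 encodes the chain that joins the Col4a1 product in the same trimer. Values were 9.83, 9.85, 11.19, 9.52 and 9.97 in tumours and 8.31, 8.56, 8.03 and 8.50 in livers. The groups did not overlap, the livers lay close together and tumour 3 again stood highest. Col4a2 rose by 1.72 (SE 0.31), or 3.29-fold, with a limma adjusted p of 0.00285. Col4a1 and Col4a2 stayed higher, with the test passed, in every setting run, including all 9 fits that left out 1 array.

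Col4a3, Col4a4, Col4a5 and Col4a6 encode chains of more restricted basement membranes, such as those of kidney and lung. Col4a4 had the widest spread among tumours of any collagen gene, with an SD of 1.30. It read 4.89, 5.02, 5.97, 7.95 and 5.01 in tumours and 5.20, 4.95, 5.61 and 5.17 in livers. Tumour 4 was high, tumour 3 was above the highest liver, and the other tumours lay close to the lower livers. The difference of 0.54 (SE 0.59) did not pass (limma adjusted p = 0.499).

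Tumour 4 was also the highest tumour for Col4a3 and Col4a5. Col4a3 was 7.58 in tumour 4, 5.26 to 6.13 in the other tumours and 5.58 to 5.92 in livers. Col4a5 was 7.20 in tumour 4, 5.40 to 6.49 in the other tumours and 5.59 to 6.48 in livers. These 3 genes stood 2.73 (Col4a4), 1.95 (Col4a3) and 1.28 (Col4a5) above the mean of the other tumours in tumour 4. They were the only collagen genes at least 1 above in that tumour, or 7.14% of 42, against 2.57% of all genes. A second probe set of each gene gave its highest value in tumour 4 as well, at 6.38 for Col4a3, 7.76 for Col4a4 and 7.75 for Col4a5. Without tumour 4 the differences from liver were -0.09 for Col4a3, -0.01 for Col4a4 and -0.05 for Col4a5, so the positive values over all tumours rest on that array. Col4a6, whose product pairs with the Col4a5 chain and whose gene adjoins it on the X chromosome, was 6.47 in tumour 4 and showed a difference of -0.03 over all arrays (adjusted p = 0.821).

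Col4a3 and Col4a4 are also neighbours with facing starts, and the Col4a4 window is shown because that gene and Col4a3 were high in the same tumour. It covers chr1:82586800-82587099 on the minus strand, and capitals mark the 179 bases that lie inside the annotated Col4a3 gene.
Col4a4: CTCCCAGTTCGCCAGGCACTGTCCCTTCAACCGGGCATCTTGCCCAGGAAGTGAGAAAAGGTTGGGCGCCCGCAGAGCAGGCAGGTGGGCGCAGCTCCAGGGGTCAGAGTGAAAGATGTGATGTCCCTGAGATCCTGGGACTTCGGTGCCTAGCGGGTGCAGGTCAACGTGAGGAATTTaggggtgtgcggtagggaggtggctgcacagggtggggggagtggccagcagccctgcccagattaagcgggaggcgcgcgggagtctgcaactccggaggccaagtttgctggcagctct
This window was 63.3% G and C and held neither CCAAT nor GGGCGG. Col4a3 was not among the genes matched to a window.

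**Figure D2:**
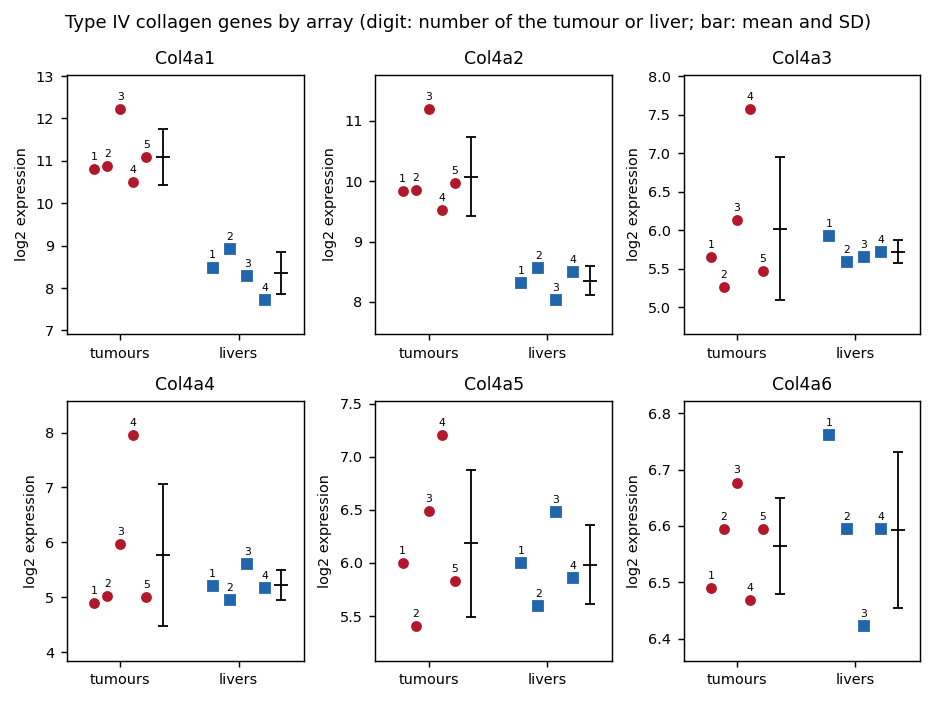
Log2 expression of the 6 type IV collagen genes on each array, with red circles for tumours, blue squares for livers, digits for the sample number, and bars for the mean and SD of each group; the vertical scales differ between panels and do not start at zero. All tumours lie above all livers for Col4a1 and Col4a2, whereas tumour 4 alone is far above the other arrays for Col4a3 and Col4a4.

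Among fibrillar collagens, Col1a1 and Col3a1 rose. Col1a1 encodes the major chain of type I collagen, the main fibre of scar. Its values were 8.21, 7.88, 10.33, 7.63 and 8.15 in tumours and 5.71, 6.58, 6.69 and 6.21 in livers. The groups did not overlap, and tumour 3 lay more than 2 log2 units above the next tumour. The difference was 2.14 (SE 0.51), or 4.42-fold, with a limma adjusted p of 0.0116. Without tumour 3 the difference was 1.67 (adjusted p = 0.00135). The other Col1a1 probe set showed 0.47 and did not pass (adjusted p = 0.146).

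Col3a1 encodes type III collagen, which forms thin reticular fibres together with type I. It read 10.53, 10.55, 12.82, 10.59 and 10.70 in tumours and 8.83, 9.49, 9.67 and 8.81 in livers. Here too no liver reached a tumour, and 4 tumours lay close together below tumour 3. The difference was 1.84 (SE 0.48), or 3.57-fold (limma adjusted p = 0.0169). It was 1.39 without tumour 3 (adjusted p = 0.00179) and 1.71 without liver 1, where the call was lost (adjusted p = 0.052). The other Col3a1 probe set showed 1.07 and did not pass (adjusted p = 0.127).

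The Col3a1 promoter window is shown as a contrast in base composition to the type IV pair: it was 37.7% G and C, held no CCAAT or GGGCGG, and carried the letters TATAAA, which occurred on either strand in 13.6% of all windows and in 5 of the 33 matched collagen genes. It spans chr1:45311288-45311587 on the plus strand, and capitals mark that match.
Col3a1: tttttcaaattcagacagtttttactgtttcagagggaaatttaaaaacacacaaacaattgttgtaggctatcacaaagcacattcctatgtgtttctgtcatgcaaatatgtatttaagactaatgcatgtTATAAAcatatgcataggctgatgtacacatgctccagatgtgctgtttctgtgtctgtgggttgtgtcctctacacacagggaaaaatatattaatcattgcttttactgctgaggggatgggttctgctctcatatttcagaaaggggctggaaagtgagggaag

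Col1a2, which encodes the partner chain of type I collagen, had the largest difference among members that did not pass. Tumours read 9.86, 9.56, 11.60, 9.35 and 9.63, and livers 8.80, 9.002, 9.26 and 8.48. Every tumour exceeded every liver by this probe set, with tumour 3 far above the others. The difference of 1.12 (SE 0.43; 95% interval 0.15 to 2.08) had a limma adjusted p of 0.0719. It fell to 0.71 without tumour 3 and then passed (adjusted p = 0.019), and it also passed with the mean of its probe sets (0.99, adjusted p = 0.037), with housekeeping centring (1.50, adjusted p = 0.0063) and with spike-in centring (1.85, adjusted p = 0.000702). A second Col1a2 probe set gave 1.90 and passed (adjusted p = 0.0167), and the third, near background, gave -0.05 (adjusted p = 0.684).

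Type V collagen chains, which join type I fibres and limit their diameter, did not pass in the brightest probe sets. Col5a2 showed 0.77 (adjusted p = 0.32), with livers spread from 6.53 to 8.79 and tumour 3 at 9.97. Col5a3 showed 0.70 (adjusted p = 0.0619) but passed without tumour 2 (0.83, adjusted p = 0.0339), without liver 4 (0.84, adjusted p = 0.0486), without the 3 arrays of low Xist (1.12, adjusted p = 0.0155), with housekeeping centring (1.09, adjusted p = 0.0227), with the replicate block (0.51, adjusted p = 0.0242) and with spike-in centring (1.43, adjusted p = 0.000623). Its other, dimmer probe set was lower by -0.37 (adjusted p = 0.033), and the mean of its probe sets showed 0.17 (adjusted p = 0.422). Col5a1 showed 0.12 (adjusted p = 0.614). The remaining fibrillar members Col11a1, Col11a2 and Col27a1 differed by 0.05, -0.07 and 0.04 and did not pass.

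**Figure D3:**
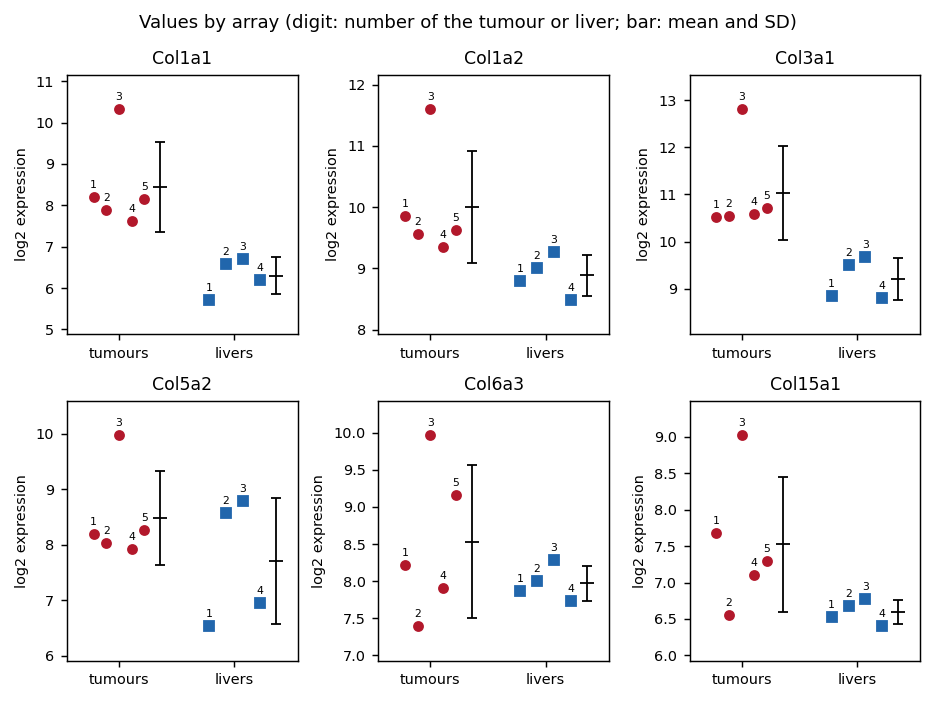
Log2 expression of Col1a1, Col1a2, Col3a1, Col5a2, Col6a3 and Col15a1 on each array, with red circles for tumours, blue squares for livers, digits for the sample number, and bars for the mean and SD of each group; the vertical scales differ between panels and do not start at zero. Tumour 3 is the highest array in every panel, and livers 1 and 4 lie below the other arrays for Col5a2.

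The 10 members that were lower in tumours did not include type I, III, IV or VI chains. Col13a1, a transmembrane collagen of cell adhesion sites, had the largest decrease. Its values were 5.30, 5.43, 5.24, 5.25 and 5.38 in tumours and 6.80, 6.22, 6.24 and 7.48 in livers. The tumours were nearly alike and all below the livers, which were spread. Col13a1 fell by 1.36 (SE 0.24), or 2.57-fold (limma adjusted p = 0.00253). With spike-in centring it showed -0.63 and no longer passed (adjusted p = 0.0662).

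Col14a1 encodes type XIV collagen, a fibril-associated collagen with interrupted triple helices (FACIT) found on type I fibres. Tumours read 8.90, 9.07, 9.98, 9.47 and 9.21 and livers 10.31, 10.49, 10.73 and 9.78. The groups overlapped only through tumour 3, which exceeded liver 4. Col14a1 fell by 1.00 (SE 0.25), or 2.00-fold (limma adjusted p = 0.0139), and its other probe sets were also lower, by -1.06 (adjusted p = 0.00187) and -1.52 (adjusted p = 0.000307). The call was lost with arrays centred on housekeeping genes (-0.61, adjusted p = 0.158) or on spike-in controls (-0.27, adjusted p = 0.194). Its difference had the opposite sign to those of Col1a1 and Col3a1, the genes of the fibres it binds.

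The other 8 lower members had small differences, from -0.47 to -0.31, or 1.24-fold to 1.38-fold. They were Col10a1 (-0.47, adjusted p = 0.00348) and Col2a1 (-0.37, adjusted p = 0.0192), known from cartilage; Col26a1 (-0.38, adjusted p = 0.0048); Col7a1 (-0.32, adjusted p = 0.0298), of the anchoring fibrils of skin; the cartilage FACIT chains Col9a3 (-0.31, adjusted p = 0.0232) and Col9a1 (-0.34, adjusted p = 0.0394); the transmembrane Col23a1 (-0.33, adjusted p = 0.0394); and the fibrillar Col24a1 (-0.33, adjusted p = 0.0483). In 5 of the 8 no tumour reached the lowest liver, as was so for 2885 of all 18193 genes. The 8 had passed the test on these same values, so such a gap is not separate support. Tumours and livers ranged from 5.81 to 6.14 and from 6.35 to 6.51 for Col10a1. The ranges were 4.48 to 4.62 and 4.79 to 5.07 for Col26a1, and 5.77 to 6.03 and 6.14 to 6.54 for Col2a1. The groups were also apart for Col7a1 (6.55 to 6.85, and 6.91 to 7.18) and Col9a3 (6.54 to 6.87, and 6.90 to 7.13). Col23a1 overlapped, at 4.84 to 5.18 and 5.14 to 5.50, as did Col9a1 at 6.001 to 6.46 and 6.35 to 6.63. Col24a1 lay within or below the TrpnX range in both groups, with means of 3.42 and 3.75.

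These small decreases were sensitive to single arrays and to the scaling. The calls of Col10a1, Col26a1 and Col2a1 held whichever array was left out. The Col9a3 call was lost without liver 3 (-0.28) or liver 4 (-0.30), and that of Col7a1 without tumour 3 (-0.29), tumour 5 (-0.28), liver 2 (-0.28) or liver 3 (-0.30). Col23a1 lost its call without tumour 2, 3 or 5 or liver 2, 3 or 4 (-0.33 to -0.27), Col9a1 without tumour 1, 2, 3 or 5 or liver 1, 3 or 4 (-0.35 to -0.28), and Col24a1 without tumour 1, 3 or 5 or any 1 of the livers (-0.38 to -0.27). All 8 took the opposite sign when arrays were centred on the spike-in controls, and all but Col10a1 did so with housekeeping genes.

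Beyond these, the beaded filament collagens of type VI, which link fibres to cells, did not pass. Col6a3 varied widely among tumours, with an SD of 1.03. It read 8.22, 7.39, 9.97, 7.91 and 9.16 in tumours and 7.86, 7.998, 8.28 and 7.73 in livers. Tumours 3 and 5 lay above all livers and tumour 2 below them. The difference was 0.56 (SE 0.47, limma adjusted p = 0.372). Col6a1 and Col6a2, adjoining genes on chromosome 10, showed -0.07 (95% interval -0.90 to 0.75) and 0.03 (-0.66 to 0.73).

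The multiplexin collagens carry heparan sulphate or chondroitin sulphate chains and sit in vessel and liver basement membranes. Col15a1 showed 0.93 (95% interval -0.01 to 1.88, limma adjusted p = 0.113), with tumours from 6.56 to 9.02 and livers from 6.40 to 6.77. It passed without tumour 2 (1.18, adjusted p = 0.042), the tumour with the lowest value, and with housekeeping (1.32, adjusted p = 0.0134) or spike-in centring (1.66, adjusted p = 0.00117). Col18a1, the source of endostatin and strongly made by hepatocytes, showed 0.26 (-0.22 to 0.74, adjusted p = 0.364). Over all 28 collagen genes that did not pass, 14 differences were above zero and 14 below, from -0.27 to 1.12. Of the 40 other probe sets for collagen genes, 2 were higher (Col1a2 and Col4a1), 5 were lower (Col14a1 and Col12a1 with 2 each, and Col5a3) and 33 did not pass, where 30.6% of all single-gene probe sets passed.

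The spread among tumours was uneven across the family. The median SD over collagen genes was 0.21 among tumours, against 0.19 over all genes, and the tumour SD exceeded the liver SD in 28 of 42 members (66.7%), against 58% of all genes. Col4a4, Col1a1, Col6a3 and Col3a1 had the largest SDs, from 1.00 to 1.30, and lay above 96.8% to 98.6% of all genes in this measure. Tumour 3 was at least 1 above the mean of the other tumours for 10 of 42 collagen genes (23.8%), against 3.34% of all genes. The excess was 2.36 for Col1a1, 2.22 for Col3a1, 2.00 for Col1a2, 1.87 for Col5a2 and Col15a1, 1.80 for Col6a3, 1.57 for Col6a1, 1.41 for Col4a1, 1.40 for Col4a2 and 1.27 for Col6a2. The group covers both chains of type I collagen, type III, the chains of the most widespread type IV collagen and the 3 classical type VI chains, and it holds none of the members that were lower. Tumour 3 was the highest tumour for 16 of 42 members (38.1%), against 19.5% of all genes, and tumour 4 for 10 of 42 (23.8%), against 22.5%. Without tumour 3 the SD of Col6a3 among the remaining tumours was 0.75. These percentages describe single arrays, and no test was made of them.

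**Figure D4:**
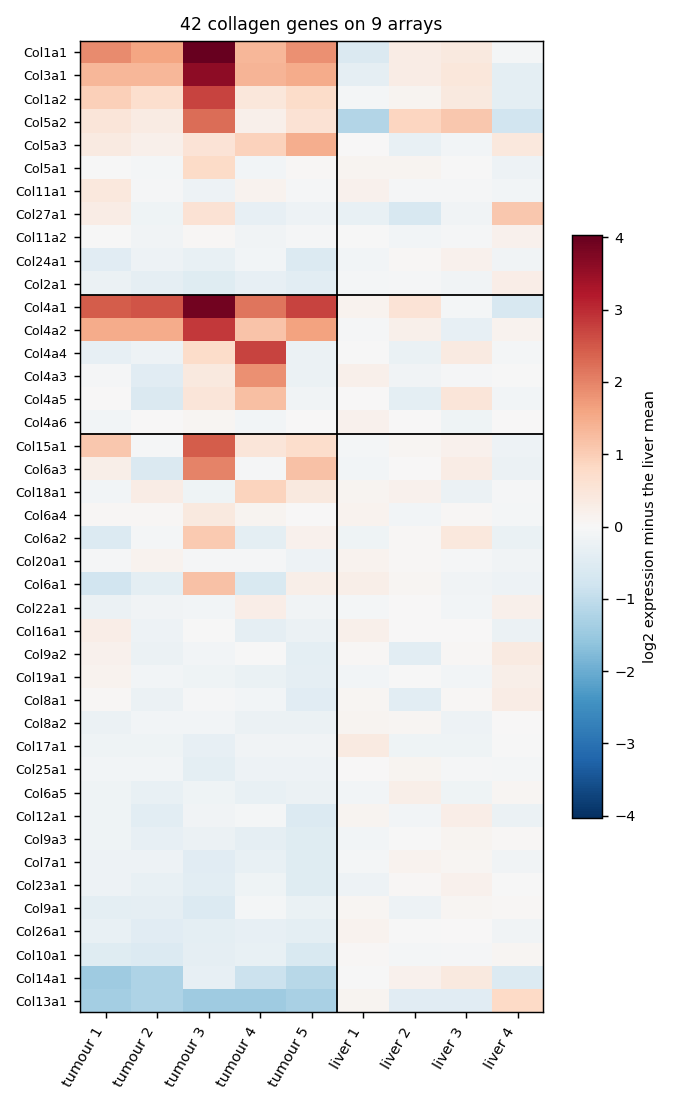
Log2 expression of 42 collagen genes (rows, grouped by type and ordered by difference) on 9 arrays (columns), each minus the gene's mean over the livers, with red above and blue below that mean. Tumour 3 is darkest for Col1a1, Col3a1, Col1a2 and Col4a1, tumour 4 for Col4a3, Col4a4 and Col4a5, and Col13a1 and Col14a1 are blue in all tumours.

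Genes that act on collagen were described from lists, by counts and medians without a test of the list. Each count is set against the 16.1% of all genes that were higher and the 17.4% that were lower, and each median against -0.08. Of 28 collagen-modifying and crosslinking enzymes, 5 were higher (17.9%) and 3 lower (10.7%), with a median of 0.09. Pcolce, the enhancer of procollagen C-propeptide cleavage, read 10.91 to 12.08 in tumours and 7.97 to 8.65 in livers and rose by 3.07 (limma adjusted p = 3.43e-05), while its relative Pcolce2 fell by 1.90 (adjusted p = 0.00353). P4hb, a subunit of prolyl 4-hydroxylase, rose by 0.57 (adjusted p = 0.000908), and Tgm2, a transglutaminase that crosslinks matrix, rose by 1.50 (adjusted p = 0.00433). Tll1 and Tll2, of the procollagen C-proteinase family, were lower by -0.24 (adjusted p = 0.039) and -0.38 (adjusted p = 0.0271). Serpinh1, the collagen chaperone HSP47, showed 0.60 and did not pass (adjusted p = 0.165).

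Of 10 collagen receptors, 1 was higher and 1 lower (10% each; median -0.12). The higher one was Ddr1, a receptor tyrosine kinase activated by collagens including types I and IV. Ddr1 read 11.00, 7.90, 11.09, 9.73 and 10.22 in tumours and 6.31, 6.98, 6.54 and 5.27 in livers, which do not overlap. From a probe set ending in x_at, which can bind similar genes, the difference was 3.71 (SE 0.64), or 13.1-fold (limma adjusted p = 0.00241). Its relative Ddr2 showed -0.08 (adjusted p = 0.41), and the platelet receptor Gp6 was lower by -0.33 (adjusted p = 0.0082).

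Basement membrane partners, the proteins that assemble with type IV collagen, had 6 higher (40%, against 16.1% of all genes) and 1 lower (6.67%, against 17.4%) of 15, with a median of 0.42. The laminin chain gene Lamb2 rose by 2.42 (adjusted p = 7.19e-07), and the nidogens Nid1 and Nid2, which bridge laminin to type IV collagen, rose by 2.42 (adjusted p = 0.000315) and 1.37 (adjusted p = 0.00682). Lama1 fell by 0.78 (adjusted p = 0.0016). Hspg2, the gene of perlecan, showed 0.07 and did not pass (adjusted p = 0.543).

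Of 19 collagen-binding matrix proteins, 2 were higher (10.5%) and 4 lower (21.1%; median -0.20). Matn2, a matrilin, and Sparc, a collagen chaperone and binding protein, rose by 2.82 (adjusted p = 0.0154) and 1.71 (adjusted p = 0.041). The fibril-regulating proteoglycans Dcn (decorin) and Ogn fell by 1.88 (adjusted p = 0.00223) and 1.43 (adjusted p = 0.00035), and the tenascin gene Tnxb by 0.76 (adjusted p = 0.00477). Among 11 collagen-degrading proteases and their inhibitors, 2 were higher (18.2%) and 1 lower (9.09%; median 0.01): the collagenase gene Mmp13 rose by 2.97 (adjusted p = 0.000198), Mmp14 by 1.10 (adjusted p = 0.00674), and Mmp16 fell by 0.41 (adjusted p = 0.00196). Mmp13 ranged from 7.15 to 8.89 over tumours and from 4.57 to 4.73 over livers.

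The TGF-beta pathway, a main inducer of fibrillar collagen genes, had 7 higher (31.8%, against 16.1% of all genes) and 2 lower (9.09%, against 17.4%) of 22, with a median of 0.38. The ligand gene Tgfb1 rose by 1.41 (adjusted p = 0.00178), the signal transducer Smad3 by 0.79 (adjusted p = 0.000675) and the co-repressor Tgif1 by 1.51 (adjusted p = 0.00588). The co-receptor Tgfbr3 fell by 1.92 (adjusted p = 0.00313) and the latent-ligand binding protein Ltbp1 by 0.59 (adjusted p = 0.00344).

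Markers of cells that make collagen were read from the same fit. Of 14 stellate cell markers 0 were higher and 8 lower (57.1%, against 17.4% of all genes; median -0.87), with Reln, Colec11 and Hand2 lower by -2.66 (adjusted p = 0.000652), -1.78 (adjusted p = 0.000315) and -1.24 (adjusted p = 0.00173). The log2 of their summed level was 13.51 in tumour 3, 11.74 to 12.46 in the other tumours and 13.11 to 13.48 in livers. In the same order their mean log2 level was 8.35, 7.18 to 8.03 and 8.29 to 8.67. Only the sum put tumour 3 above all livers. Of the 14, 5 (35.7%, against 3.34% of all genes) stood at least 1 above the mean of the other tumours in tumour 3, namely Pdgfra, Vim, Pdgfrb, Rgs5 and Cygb. By the same measure 9 of 19 collagen-binding matrix proteins (47.4%) and 5 of 11 collagen-degrading proteases and inhibitors (45.5%) stood apart in tumour 3, and 0 of 7 hepatocyte markers did. Myofibroblast markers had 1 higher (Tagln) and 1 lower (Postn) of 8 (12.5% each), with a summed level of 10.66 to 11.57 in tumours and 10.60 to 11.54 in livers. Portal fibroblast markers had 2 higher (Eln and Entpd2; 28.6%) and 1 lower (Mfap4; 14.3%) of 7, at 9.84 to 10.63 and 9.48 to 9.69, with every tumour above every liver in the sum. Their part in the collagen results was not tested.

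Endothelial markers had 3 higher (Cd34, Emcn and Plvap, or 23.1%, against 16.1% of all genes) and 4 lower (30.8%, against 17.4%) of 13. The summed level was lower in every tumour, at 11.60 to 12.37 against 12.87 to 13.14. The mean log2 level of the same markers overlapped, at 7.44 to 8.41 in tumours and 8.18 to 8.56 in livers. The sinusoidal markers Clec4g and Stab2 were lower by -4.08 (adjusted p = 0.00128) and -1.60 (adjusted p = 0.00128). Kdr, a general endothelial marker, was lower by -1.15 (adjusted p = 0.000157), and Cd34, a marker of continuous capillaries, rose by 1.77 (adjusted p = 0.00153). Macrophage markers had 0 higher and 5 lower of 8 (62.5%; 10.62 to 13.09 in tumours, 13.03 to 14.01 in livers), bile duct markers 1 higher and 1 lower of 6 (16.7% each; 9.16 to 10.32 and 8.99 to 9.53), and lymphocyte markers 0 of 6 in either direction (9.04 to 10.48 and 9.30 to 10.43). The part of these cells in the collagen results was not tested either.

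**Figure D5:**
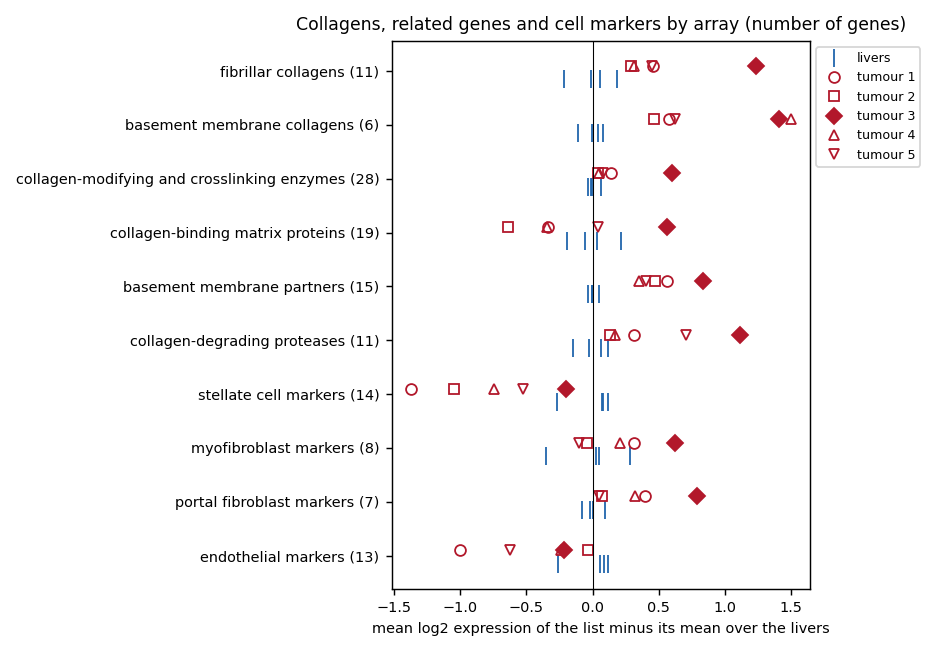
Mean log2 expression of each list of genes on each array, minus the mean of that list over the livers; red symbols are tumours, blue ticks livers, and the number of genes is in parentheses. Tumour 3 (filled diamond) is the highest tumour for every list except the basement membrane collagens and the endothelial markers. The stellate cell markers lie below the liver mean in all 5 tumours.

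A technical measure also differed between the groups. The log2 ratio of 3′ to 5′ probe sets of Actb, which rises as RNA or its copies shorten, averaged 0.61 ± 0.08 over tumours (SD, n = 5), against 0.96 ± 0.04 over livers (SD, n = 4; two-sided exact permutation test, p = 0.00794, the smallest this design allows; adjusted p = 0.0159 over the 2 controls). For Gapdh it was -0.21 ± 0.03 and -0.28 ± 0.05 (exact permutation p = 0.0635). The bacterial spike-in probe sets read lower in all 5 tumours than in all 4 livers for 12 of 12, by -0.96 to -0.53. The part of these differences in the collagen values was not tested.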

How the data were processed

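Total RNA of 5 tumours and 4 livers was isolated with Trizol and, per the labels' protocols, amplified in a pair of rounds by RiboAmp, which favours the 3′ ends of transcripts. The authors deposited log2 expression values, 1 per probe set and array. Per the submitters' processing notes these come from RMA, whose version and settings the sources used here do not give. The table held 45101 probe sets with values from 3.13 to 15.55. Samples were grouped by their titles. Scan batches are unknown from these sources.

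Platform annotation named 1 gene for 34945 probe sets, several for 932 and none for 9160, and 64 controls were left out. Of the probe sets that named 1 gene, 34741 had that gene in RefSeq (GRCm38.p6), which changed 0 symbols. The brightest probe set per gene over all 9 arrays was used. Of the 42 collagen genes, 27 had several probe sets and 2 were read by a probe set ending in x_at or s_at, which can bind similar genes. Among genes named from the lists, Ddr1, Tgm2 and Serpinh1 were also read by probe sets ending in x_at.

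Groups were compared with limma 3.58.1 in R 4.3.3 (lmFit and eBayes, two-sided, no covariates, Benjamini-Hochberg over all 18193 genes, threshold 0.05). Adjusted p-values in the text are from this fit unless another test is named. The fit was tested on simulated data. Summaries used Python 3.11.15, and plots matplotlib 3.10.9. The RNA length controls were compared by exact permutation.

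The collagen genes and all lists were chosen with earlier results of these data known. Array values are given for Col4a1, Col4a2, Col1a1, Col3a1, the collagen genes past the threshold, the 4 with the largest tumour SD and the one with the largest difference that did not pass. Up to 3 genes per direction are named from each list, those with the smallest adjusted p. Other collagen genes, Serpinh1, Ddr2, Hspg2 and the markers named in tumour 3 were named after their values were seen. The RNA that tumour and liver cells contribute per cell is not known from these arrays, whose number limits the precision. Alternatives covered the probe set, the filter on dim probe sets, scaling, the variance model, single arrays, the 3 arrays with an Xist value under 10 and a replicate block. Scaling on spike-in controls, the other probe sets and the removal of tumours 3 and 4 together were added after the data had been seen.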

Additional observations from a re-analysis of the deposited data

Results flagged for a closer look

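Among 44 groups of values of the named collagen genes, 6 held an array that stood apart by Dixon's ratio, the gap to the nearest array over the group's range, with critical values of 0.71 for 5 tumours and 0.829 for 4 livers. Chance alone sets about 5% of groups apart in this way where groups are not chosen by their values. Some of these genes were named for a large tumour SD or after their values were seen. The 6 of 44 can therefore not be set against that share. Tumour 3 was the highest tumour in 5 of the 6, and since these values come from the same array they are not separate observations. Its ratio was 0.924 for Col3a1 (12.82), 0.829 for Col5a2 (9.97), 0.786 for Col1a1 (10.33), 0.773 for Col1a2 (11.60) and 0.731 for Col4a2 (11.19). The other was the Col9a1 value of 6.35 in liver 2, below the remaining livers, with a ratio of 0.911.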

How the results depend on the processing

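Of 436 values of the 22 named collagen genes under the alternatives, 338 kept direction and side of the threshold, 54 lost the call, 20 gained it and 24 changed sign. Col4a1 (20 settings) and Col4a2 (19) kept both in all. Against 4 higher and 10 lower collagen genes and 6091 genes called in all, centring on the 75th percentile gave 4, 17 and 10310, on housekeeping genes 7, 1 and 4812, and on spike-in controls 34, 0 and 14302. The share of all calls that were higher went from 48% to 22.6%, 87.3% and 96.8%. With the replicate block (title numbers 1 to 4) the counts were 5, 4 and 3552; same-numbered tumours and livers deviated together weakly or oppositely (r = -0.129, -0.067, 0.18 and -0.121), so the numbers were not taken as pairs. Leaving out 1 array gave 3 to 6 higher, 6 to 10 lower and 4632 to 6361 in all; 6 were lower without the 3 arrays of low Xist and 6 without tumours 3 and 4.

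Signs changed with spike-in centring for Col10a1 (0.27), Col26a1 (0.35), Col2a1 (0.36), Col9a3 (0.42), Col7a1 (0.41), Col9a1 (0.39), Col23a1 (0.41) and Col24a1 (0.40), and with housekeeping genes for Col26a1 (0.0077), Col2a1 (0.017), Col9a3 (0.076), Col7a1 (0.064), Col9a1 (0.052), Col23a1 (0.062) and Col24a1 (0.056). The housekeeping setting centres on the median of 13 genes. That median ranged from 11.92 to 12.74 over tumours and from 12.72 to 12.92 over livers. Of the 13, 7 were themselves higher in tumours (53.8%, against 16.1% of all genes) and 1 lower (7.69%, against 17.4%). Their median difference was 0.40. The mean of the 13 ran the other way, from 12.09 to 12.42 over tumours and from 11.64 to 11.94 over livers. Both scalings ended the Col14a1 call (-0.61 and -0.27), and spike-in centring that of Col13a1 (-0.63). Other probe sets turned Col9a1 (0.12), Col1a2 (-0.047) and Col5a3 (-0.37); the cause was not tested. Leaving out 1 array gave -0.011 to 0.76 for Col4a4, -0.091 to 0.49 for Col4a3 and -0.055 to 0.40 for Col4a5, all negative only without tumour 4; without tumours 3 and 4 they were -0.26, -0.26 and -0.24. Decreases of dim probe sets such as Col24a1 are limited by the background.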
